A study of Mus musculus with 3 samples.

Results

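The matrix metalloproteinases Mmp2, Mmp3, Mmp9, Mmp10, Mmp13 and Mmp14 and the tissue inhibitors Timp1, Timp2 and Timp3 were followed across all libraries of a mouse dry eye study. The 9 genes were chosen by symbol, with earlier results of these data known. Each was matched by its Ensembl ID to 1 row of every count matrix, out of 30406 IDs that all matrices list. The WT and KO matrices each list 32285 genes and that of KO_PBS 31053, so KO_PBS was counted over another gene list, and its effect on levels cannot be told apart from that of the group. Nuclei were taken from frozen whole corneas, 5 mice of 7 weeks being pooled per library, and sequenced in droplets with a 3' kit that tags each RNA molecule with a unique molecular identifier (UMI). WT came from wild-type mice, KO from untreated Aire knockout mice and KO_PBS from Aire knockout mice given phosphate-buffered saline (PBS) for 14 days, so KO and KO_PBS share the loss of Aire. Aire drives the display of self-antigens in the thymus, and its loss in mice leads to autoimmune disease of the eye surface. The series text gives an age of 6 weeks and treatment day 7, which differ from the sample labels, and its lacripep arm was not analysed here. Each group is 1 library, so nothing separates a group from its library, and every interval below is a 95% interval for counting error only.

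Matrix metalloproteinases are zinc enzymes that cut collagens, proteoglycans and basement membrane proteins, and most are secreted as inactive proenzymes. The tissue inhibitors bind the active enzymes, and Timp2 also takes part in the activation of pro-Mmp2 at the cell surface by the membrane enzyme Mmp14. In the cornea, keratocytes are the stromal fibroblasts that make and remodel the collagen lamellae. Inflamed corneas and tears are known for high gelatinase and stromelysin activity. Mmp3 and Mmp10 are stromelysins, Mmp13 is a collagenase, and Mmp2 and Mmp9 are gelatinases.

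Mmp3, Mmp10 and Mmp13 lie in 1 stretch of chromosome 9 on the same strand. In GRCm38 (GENCODE M21) Mmp13 spans chr9:7272514-7283331, Mmp3 chr9:7445822-7455975 and Mmp10 chr9:7502352-7510240. Their promoters are shown because the inflammatory metalloproteinases are textbook targets of the AP-1 factors Fos and Jun. Each sequence holds the 120 bases before the RefSeq start (GRCm38.p6, plus strand), with the AP-1 letters TGAGTCA or their reverse complement TGACTCA in capitals. They are chr9:7272394-7272513 for Mmp13, chr9:7445702-7445821 for Mmp3 and chr9:7502222-7502341 for Mmp10.
Mmp13: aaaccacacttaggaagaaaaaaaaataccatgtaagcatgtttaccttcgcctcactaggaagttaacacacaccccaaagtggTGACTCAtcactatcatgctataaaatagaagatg
Mmp3: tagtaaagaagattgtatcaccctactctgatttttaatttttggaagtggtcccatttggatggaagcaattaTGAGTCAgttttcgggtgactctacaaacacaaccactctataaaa
Mmp10: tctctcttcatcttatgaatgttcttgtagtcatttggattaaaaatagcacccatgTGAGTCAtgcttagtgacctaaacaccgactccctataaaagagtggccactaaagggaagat
The motif, searched on both strands over the 250 bases before the start, was found once in each of these promoters, 35 bases before the start in Mmp13, 46 in Mmp3 and 63 in Mmp10. It was in 4.46% of the 32851 mouse promoters searched in the same way. The letters TATAAA, searched on the strand shown only, were in each of the 3 as well and in 7.59% of all promoters. The promoters of Mmp14, Timp1, Timp2 and Timp3 held neither set of letters, and those of Mmp2 and Mmp9 were not analysed here. A further motif, the PEA3 letters AGGAAG, was in 29.5% of all promoters and did not divide the genes in this way. It was found 2 times each in Mmp13 and Timp1, and 1 time each in Mmp3, Mmp14 and Timp3. Mmp10 and Timp2 had 0. A match is a description of the sequence and not a bound site.

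WT held 96587 barcodes, KO 107031 and KO_PBS 114357. The median barcode had 2253, 2970 and 1422 UMIs respectively, and the libraries summed to 255925024, 351335206 and 177818671 UMIs over the shared IDs. Aire itself had 15, 27 and 68 UMIs, so the targeted gene did not check the labels. Between 2833 and 3379 barcode sequences occurred in both libraries of a pair. The transcript AY036118 took 3.59% of the UMIs of WT, 1.94% of KO and 0.0512% of KO_PBS. Immunoglobulin genes took 0.000437% of the WT library, 2.22% of KO and 0.184% of KO_PBS. Summed over whole libraries, fewer cells of a type and less RNA per cell cannot be told apart.

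Levels are counts per 1000000 UMIs (CPM) of the library, or of the set of barcodes named. To be counted as higher or lower, a gene needed a sum of 50 UMIs or more in the pair compared, at least a 2-fold difference with counts under 3 set to 3, and separate intervals. The rule judges size and tests nothing. In KO against WT 8 of the 9 genes were counted higher and 0 lower, beside 20.6% higher and 8.63% lower among the 20252 genes that reached the UMI minimum. The median log2 ratio was 2.87 over the 9 genes and 0.25 over all genes. Centred on the median of all genes, 7 of the 9 were higher, Timp2 dropping out, beside 14.8% of all genes higher and 12.9% lower on that scale.

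**Figure D1:**
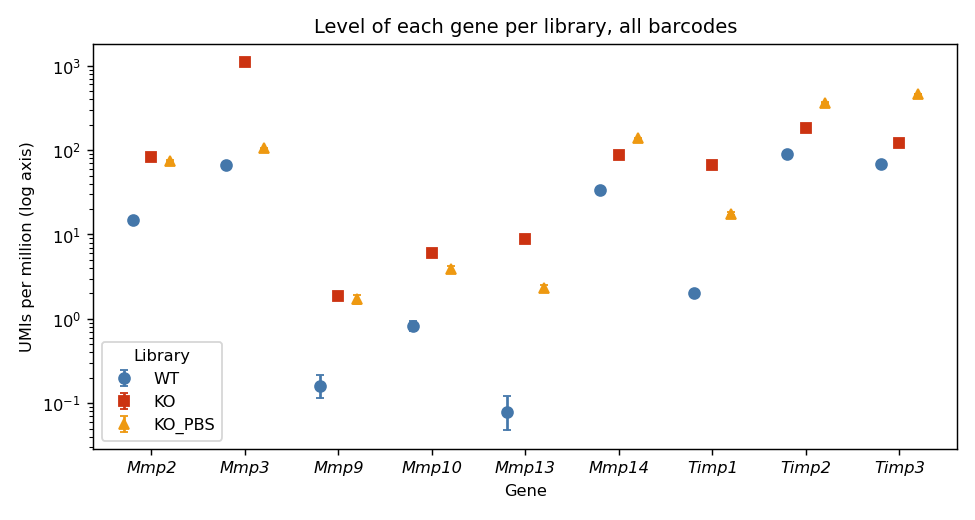
Level of each gene in CPM (log axis) over all barcodes of WT, KO and KO_PBS, with bars for the 95% Poisson interval. Every gene was lowest in WT; Mmp3, Mmp13 and Timp1 were highest in KO, and Mmp14, Timp2 and Timp3 in KO_PBS.

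The stromelysin Mmp3, which cuts proteoglycans and activates other proenzymes, had a level of 66.2 CPM for WT, 1092 for KO and 104.8 for KO_PBS, from 16931, 383642 and 18633 UMIs. KO stood far above both other libraries. The KO level was 16.5-fold that of WT (16.2 to 16.8), and the KO level was 10.4-fold that of KO_PBS (10.3 to 10.6). KO_PBS was 1.58-fold WT, which did not reach the fold of 2 and turned below WT when centred on all genes (log2 0.66 and -0.61). Mmp10, the other stromelysin, had 0.821, 6.01 and 3.88 CPM. Its level in KO was 7.32-fold that of WT, while KO_PBS lay at 0.646 of KO.

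Mmp13, the collagenase that opens fibrillar collagen, had the largest ratio of the 9 genes between KO and WT. WT held 20 UMIs of it, KO 3078 and KO_PBS 410, or 0.0782, 8.76 and 2.31 CPM. KO was 112-fold WT (72.5 to 184), the width of the interval coming from the 20 UMIs of WT. KO_PBS lay between them, at 0.263 of KO and 29.5-fold WT.

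The gelatinase Mmp9, a granule enzyme of neutrophils, was rare throughout, with 41, 658 and 303 UMIs. Its CPM was 0.160, 1.87 and 1.70 in WT, KO and KO_PBS. KO was 11.7-fold WT, and the intervals of KO and KO_PBS overlapped. Mmp2, the gelatinase of stromal cells, had 14.9, 83.7 and 74.4 CPM, so that both Aire knockout libraries stood above WT. Mmp14, the membrane enzyme that activates Mmp2, had 34.0, 86.6 and 138 CPM. Its level followed another order, with KO_PBS above KO by 1.60-fold, close to the median of all genes in that comparison.

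Of the inhibitors, Timp1, which inflammatory cytokines are known to induce, had the largest ratio of KO to WT. Its level was 2.01 CPM for WT, 66.0 for KO and 17.6 for KO_PBS, from 515, 23202 and 3135 UMIs. The KO level was 32.8-fold WT (30.1 to 35.9) and 3.75-fold KO_PBS. Timp2 had 90.0, 180.9 and 364 CPM, and its KO to WT ratio of 2.01 lay at the edge of the rule. Timp3, which is held in the extracellular matrix and also inhibits ADAM sheddases, had 68.3, 122 and 465. Its KO to WT ratio of 1.79 was not counted, and its highest level by far was in KO_PBS. Exons of Timp3 overlap those of Syn3 on the other strand, and use of strand in the counting is not given in the sources used here, so reads of the pair may not be fully separated. Timp2 overlaps Cep295nl on the same strand and Timp1 overlaps Syn1 on the other, in both cases without overlap of exons. How intronic reads were treated is not given either, so the same limit may apply to these pairs.

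In KO_PBS against KO, 2 of the 9 genes (Timp2 and Timp3) were counted higher and 3 (Mmp3, Mmp13 and Timp1) lower. Over all genes 39.9% were higher and 4.70% lower, with a median log2 ratio of 0.63. Centred on that median, 1 was higher (Timp3) and 4 were lower, Mmp10 being added, beside 29.8% of all genes higher and 12.9% lower. The lower genes thus ran against the median of the library, whereas Timp2 was near it once centred. In KO_PBS against WT, 8 genes were higher and 0 lower, but so were 57.0% of all genes higher and 4.06% lower, with a median of 1.27. Centred, 5 of the 9 stayed higher (Mmp2, Mmp9, Mmp13, Timp1 and Timp3) and 0 were lower, beside 29.6% of all genes higher and 23.1% lower. The comparisons share libraries in pairs and are not independent of each other.

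**Figure D2:**
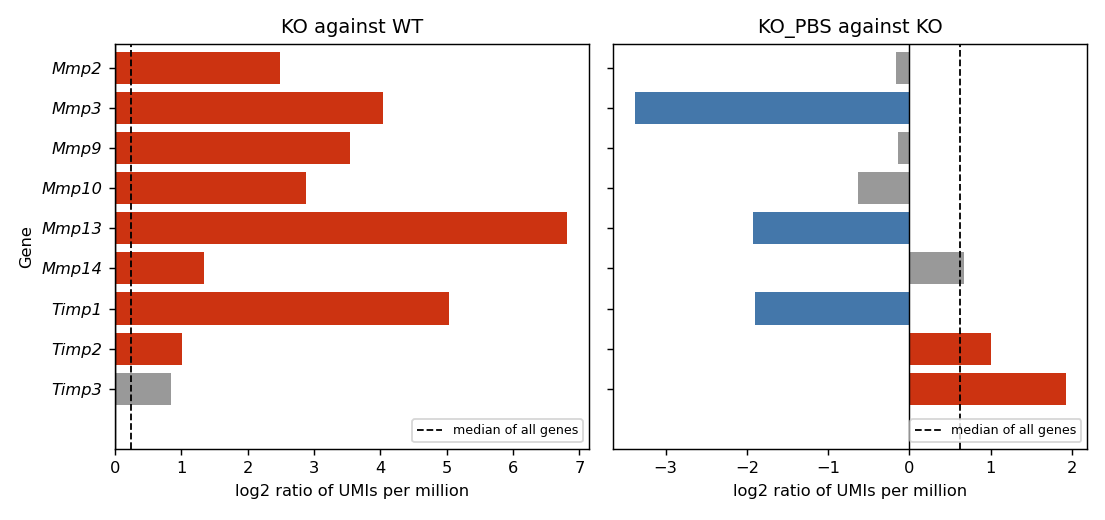
Log2 ratio of CPM over all barcodes, KO against WT on the left and KO_PBS against KO on the right; red bars were counted higher, blue bars lower and grey bars neither, and the dashed line marks the median of all genes. Mmp3, Mmp13 and Timp1 lie far to the right in the first panel and to the left in the second.

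Markers of other cells moved with these levels. The summed level of Kera, Lum, Dcn and Col1a1, genes of keratocytes, was lowest in WT (779 CPM), highest in KO (2421) and 1459 in KO_PBS. The neutrophil genes S100a8, S100a9, Csf3r and Cxcr2 summed to 7.96, 657 and 51.8, and the macrophage genes Csf1r, Adgre1, Mrc1 and C1qa to 27.3, 410 and 494. T cell genes (Cd3e, Cd3d, Cd3g and Trac) summed to 1.52, 63.3 and 47.3. The keratocyte, neutrophil and T cell sums thus had the same order over the libraries as Mmp3, Mmp13 and Timp1, and their part in those levels was not tested. The corneal epithelium genes Krt12, Krt5, Krt14 and Pax6, the largest sum, went from 36070 in WT to 22500 in KO and 9548 in KO_PBS. Melanocyte genes (Tyr, Dct, Mlana and Pmel) summed to 455, 127 and 3572, corneal endothelium genes (Slc4a11, Col8a1, Col8a2 and Cdh2) to 156, 201 and 788, and Rpe65, Rgr, Rlbp1 and Ttr, genes of the pigment epithelium of the eye, to 68.9, 23.7 and 361. Vascular endothelium genes (Pecam1, Cdh5, Flt1 and Kdr) summed to 14.1, 42.9 and 98.3, and mural genes (Rgs5, Notch3, Pdgfrb and Acta2) to 112, 126 and 392. These last 5 sums were highest in KO_PBS, as was Timp3, and their part in the result was not tested.

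To ask whether keratocytes carry these transcripts, barcodes rich in their markers were set apart. A barcode was taken as rich when it held at least 5 UMIs of Kera, Lum, Dcn and Col1a1, at least 3 of these genes, and at least 5 times the number expected from its depth. WT had 1548 such barcodes (1.60%), KO 64 (0.0598%) and KO_PBS 21 (0.0184%), and 0 of them were rich in a further library. Enrichment was measured against the library's own marker level, which was lowest in WT. Collagen genes that the rule did not use (Col1a2, Col5a1, Col5a2, Col6a1, Col6a2 and Col6a3) were 8.22 to 10.8-fold higher in rich than in other barcodes of WT and 4.03 to 6.06-fold higher in KO. In KO_PBS they were 1.56 to 4.77-fold higher on 3 to 67 UMIs each. Not all of the stromal genes checked did so. Ogn was 3.33, 3.70 and 1.42-fold in rich barcodes of WT, KO and KO_PBS, and Pdgfra 3.06, 3.48 and 5.38-fold. Fbln1 was near the level of the other barcodes (1.35, 1.15 and 0.995-fold). Thy1 was 2.02, 1.43 and 0.680-fold and Aldh1a1 1.62, 0.605 and 0.826-fold, on 1 to 6 UMIs each in KO and KO_PBS. Ptgds, also a keratocyte gene, went against the name in each library, with 0.895, 0.690 and 0.784 of the level of the other barcodes.

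In WT, Mmp3 had 398 CPM in rich barcodes (380.5 to 416) and 59.7 in all others, a ratio of 6.67 (6.36 to 6.99). Mmp2 had 72.0 against 13.8, and Timp2 had 278 against 86.3. These 3 genes were counted higher and 0 lower, where 4.46% of all genes were higher and 0.162% lower. Mmp14 was level between the sets, at 36.2 against 34.0 (ratio 1.07, 0.913 to 1.24). Timp3 had 104.5 against 67.6, and Timp1 3.25 against 1.99 on 16 UMIs.

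In KO, Mmp3 had 4860 CPM in the rich barcodes (4548 to 5188) and 1090 in all others, a ratio of 4.46 (4.17 to 4.76). A single barcode held 188 of the 902 UMIs, and without it the level was 3993. Timp2 had 641 against 181, Mmp2 had 226 against 83.7, and Timp1 had 151 against 66.0. Without the barcode that held the most UMIs of each gene, their levels were 606, 190 and 129. For Timp1 this is less than 2-fold the level of the other barcodes. Over all rich barcodes Mmp3, Timp2, Mmp2 and Timp1, 4 genes, were higher and 0 lower, beside 2.35% of all genes higher and 0.425% lower. Thinned to 1000 UMIs per barcode, Mmp2 and Timp1 were no longer counted, while Timp3 was, beside 1.79% of all genes higher. Mmp9 was counted then too, but it had only 2 UMIs in these barcodes before thinning, fewer than the 3 that low counts are set to, and nothing is read from it. Centred on the median of all genes, Mmp3 alone was higher and Mmp14 was lower, beside 0.447% of all genes higher and 18.0% lower. Mmp14 was again level, at 80.8 against 86.6.

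In KO_PBS, the 21 rich barcodes held 9 UMIs of Mmp3, or 298.5 CPM (136.5 to 567) against 104.8. This was the 1 gene counted higher, 0 being lower, beside 1.21% of all genes higher and 0.0616% lower, and it was lost under several other settings. With barcodes at 3 times the expected markers, 693 in number, the Mmp3 ratio was 1.53 (1.30 to 1.79). At that threshold it was 5.24 in WT over 3402 barcodes and 2.87 in KO over 1087. Mmp9, Mmp10 and Mmp13 had 0 to 3 UMIs each in the rich barcodes of any library, which is too few to place them.

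**Figure D3:**
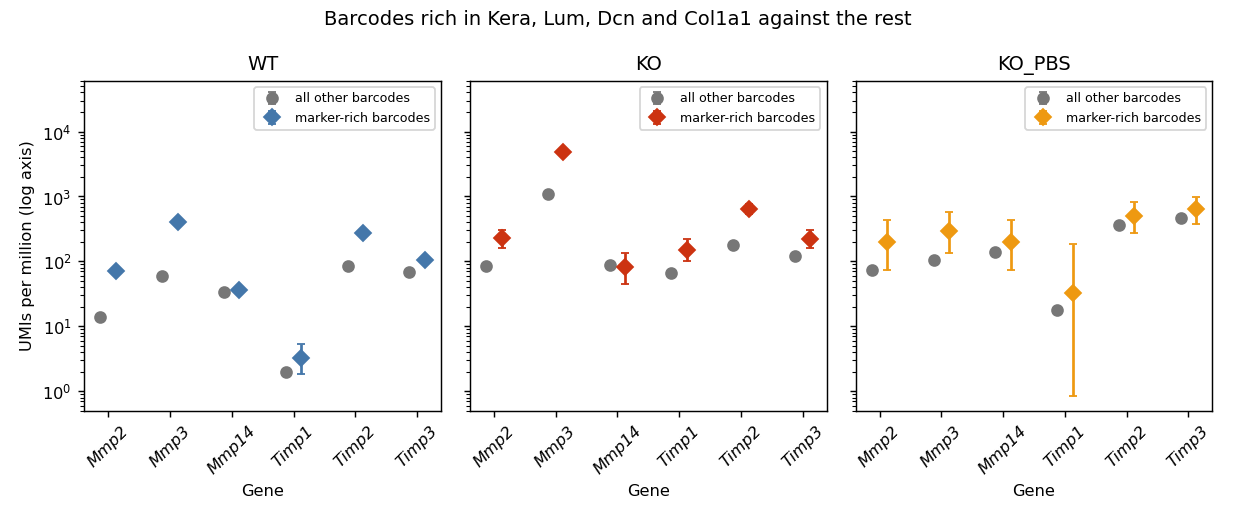
CPM (log axis) in barcodes rich in Kera, Lum, Dcn and Col1a1 (coloured diamonds) and in all other barcodes (grey circles) of each library, with 95% Poisson intervals. Mmp2, Mmp3 and Timp2 lie above the other barcodes in WT and KO, Mmp14 does not, and the KO_PBS intervals are wide.

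Between KO and WT, the rich barcodes differed in the same direction as the rest. A rich barcode needed 5 times its library's own marker level, which was 779 CPM in WT and 2421 in KO. The rich barcodes of KO thus had to hold a larger share of marker UMIs, and the sets are not like for like. Col1a2, which the rule did not use, had 1808 CPM in rich barcodes of WT and 7031 in those of KO. In KO against WT, 5 of the 5 genes with enough UMIs (Mmp2, Mmp3, Mmp14, Timp2 and Timp3) were higher and 0 lower, where 8.78% of all genes were higher and 2.13% lower. Centred on the median of all genes, Mmp2 and Mmp3 were still counted and Mmp14, Timp2 and Timp3 were not, beside 4.93% of all genes higher and 4.64% lower. Thinned to 1000 UMIs, Mmp3, Timp2 and Timp3 were counted and Mmp2 and Mmp14 were not, beside 5.6% of all genes higher. The log2 ratio of Mmp3 was 3.61 in the rich barcodes and 4.19 in the others, and that of Mmp2 was 1.65 and 2.60. Timp1 had 16 UMIs in WT and 28 in KO, below the minimum, at 3.25 and 151 CPM. In KO_PBS against KO, Timp3 was higher and Mmp3 lower (log2 1.51 and -4.03) among 3 genes with enough UMIs, where 6.55% of all genes were higher and 11.5% lower. In KO_PBS against WT, Mmp14 and Timp3 were higher and 0 of 5 lower, where 6.44% of all genes were higher and 1.38% lower. Both rest on 6 and 19 UMIs in KO_PBS. Centred on the median of all genes, 0 were higher there and Mmp3 and Timp2 were lower, but 0.749% of all genes were then higher and 17.9% lower. Counts under 3, set to 3, stand at 99.5 CPM in the rich barcodes of KO_PBS. This raises that median (log2 1.85), so nothing is read from these centred counts. Mmp3 in the rich barcodes of KO_PBS was at 0.750 of WT (0.342 to 1.43), an interval that includes 1. Its centred value (log2 -2.26) carries the limit of that median. Mmp3 was also counted lower when Dcn was left out of the markers, with 186 rich barcodes in KO_PBS. Its log2 ratio lay below 0 under each alternative that gave a value (-2.26 to -0.28). The main value rests on 9 UMIs and was not counted.

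Mmp3 followed the keratocyte markers in a graded way. Barcodes with at least 1000 UMIs were put in bands by their marker UMIs over the number expected: under 1, 1 to 2, 2 to 3, 3 to 5, and 5 or more. In WT the Mmp3 level of these bands was 39.5, 70.1, 122, 227 and 410 CPM. In KO it was 863, 1296, 1887, 2968 and 4789. In both libraries each band was above the one before with no overlap of intervals. In KO_PBS the levels were 99.1, 109.9, 113, 142 and 317, the last on 9 UMIs in 18 barcodes. Even the lowest band of KO, at 863, was above the highest band of WT.

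Timp1 in KO had a like order over the first 4 bands, at 51.6, 77.9, 120 and 212, with 147 in the last on 28 UMIs. Mmp13 did not: its KO levels were 8.84, 8.73, 7.59, 11.3 and 5.26. The Mmp14 levels of KO ran from 84.3 to 104 over the first 4 bands.

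**Figure D4:**
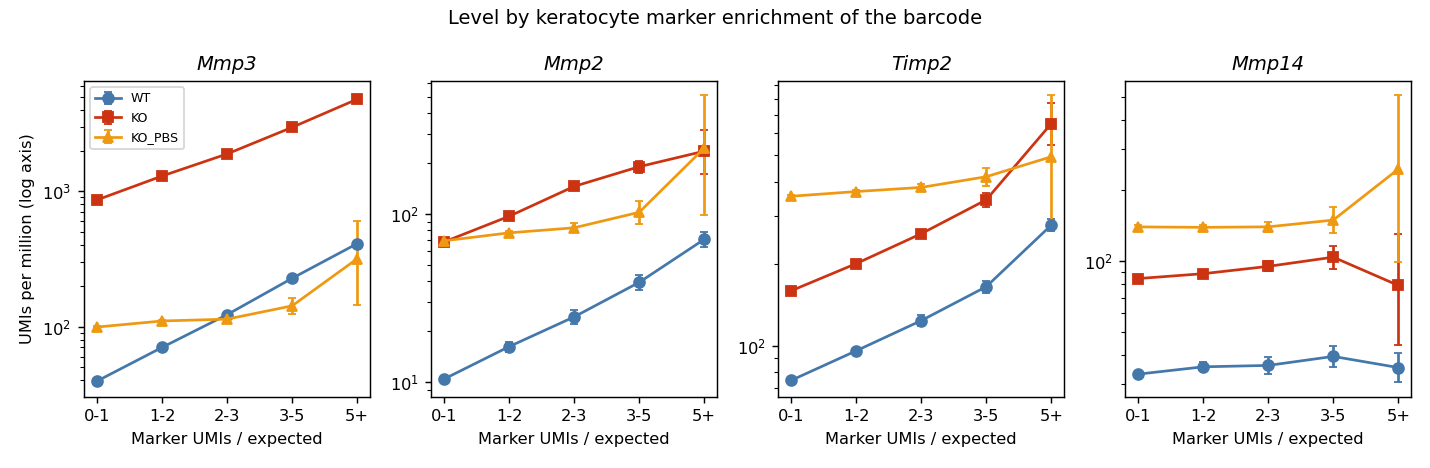
CPM (log axis) of Mmp3, Mmp2, Timp2 and Mmp14 by the barcode's keratocyte marker UMIs over the number expected from its depth, for barcodes with at least 1000 UMIs, with 95% Poisson intervals. Mmp3 rises from 39.5 to 410 over the bands of WT and from 863 to 4789 in KO, while Mmp14 stays nearly flat in both.

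Within the rich barcodes Mmp3 was uneven. In WT 465 of 1548 had a UMI of it, and the 50 barcodes with at least 10 UMIs held 44.9% of the total. In KO 55 of 64 had a UMI, and 19 barcodes with at least 10 held 85.0%. The other barcodes of KO held it too: 93109 of 106967 had a UMI, and 6736 of them had at least 10, up to 301. In KO_PBS no barcode had more than 9.

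In KO, most barcodes of every kind compared held Mmp3. Thinned to 1000 UMIs each, 17.9% of rich WT barcodes had a Mmp3 UMI, against 4.89% of the others, 4.04% of barcodes rich in melanocyte genes and 5.20% of low-UMI barcodes, the 25% with the lowest depth. In KO the shares were 70.3% (57.6 to 81.1), 57.4%, 58.9% and 58.0%. The share in the other KO barcodes was thus close to that in barcodes rich in melanocyte genes and in low-UMI barcodes, and it is not read as expression by those nuclei. Where these UMIs came from was not tested. Before thinning the shares were 30.0% and 10.9% in WT and 85.9% and 87.0% in KO, at median depths of 2640 (rich) and 2248 (other) UMIs in WT and 2577 and 2970 in KO. Thinning left out 3 rich and 262 other barcodes in WT, and 0 and 226 in KO. The Mmp3 level in low-UMI barcodes of KO was 1085 CPM, near that of the whole library.

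The barcodes that held the most Mmp3 were then described by their other genes. A barcode was taken when it had at least 5 Mmp3 UMIs and at least 5 times the expected number, a grouping made after the levels were seen, so its genes are given with no test. The expected number follows each library's own Mmp3 level, which was highest in KO, while the minimum of 5 UMIs is fixed. The sets are thus not like for like between libraries. WT had 418 such barcodes (0.433%), KO 1445 (1.35%) and KO_PBS 17 (0.0149%), with 22.2%, 10.3% and 0.590% of the Mmp3 UMIs. Of them 126, 12 and 0 were also rich in keratocyte markers. The 4 keratocyte markers were 4.03-fold the level of the other barcodes in WT (3.93 to 4.13) and 1.84-fold in KO (1.82 to 1.87). In WT the macrophage markers were at 2.11-fold (1.75 to 2.52), the neutrophil markers at 1.96-fold (1.34 to 2.76) on 33 UMIs and the corneal epithelium markers at 0.956-fold. In KO the neutrophil markers were at 1.19-fold, the macrophage markers at 1.12-fold and the corneal epithelium markers at 0.881-fold.

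The leading genes of the Mmp3-rich barcodes are given by library. In WT the 10 with the largest ratio among those with at least 50 UMIs were led by the fatty acid binding protein gene Fabp4 (9.75-fold, on 50 UMIs) and the unnamed transcript Gm26771 (7.81-fold). They were followed by Sfrp2 (6.96-fold), Cpxm1 (6.64-fold), the matricellular gene Thbs2 (6.42-fold), Fmo1 (5.28-fold), Aspn (4.87-fold), Matn4 (4.71-fold), Mgp (4.63-fold) and Myoc (4.58-fold). In KO they were led by the neutrophil attractant Cxcl5 (11.2-fold), Timp1 (10.3-fold) and the acute-phase gene Saa3, at 9928 CPM against 1115 (8.91-fold). The others of the 10 were the pattern recognition gene Ptx3 (8.84-fold), the elastase Mmp12 (7.24-fold), Saa1 (6.29-fold), Crabp1 (5.22-fold), the collagen crosslinker Lox (4.92-fold), Saa2 (4.82-fold) and the chemokine Cxcl1 (4.61-fold). The 342 Timp1-rich barcodes of KO, taken in the same way, were led by Saa2 (15.7-fold), Saa1 (14.4-fold), Mmp12 (14.1-fold), Cxcl5 (13.6-fold) and Saa3 (11.2-fold). Mmp3 itself was 6.05-fold in them, at 6455 CPM. Timp1 and Mmp3 UMIs thus fell on the same barcodes in KO more than across the library.

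The same was done for Timp3 in KO_PBS, where 238 barcodes were rich in it. Rpe65, the isomerase of the visual cycle in the pigment epithelium, led at 7.12-fold, followed by the fibroblast gene Fap (6.50-fold), the integrin Itgb8 (6.17-fold), Tmem56 (5.00-fold) and Rgr (4.94-fold). Adamtsl3 (4.58-fold), Pak7 (4.13-fold), Col8a1 (3.35-fold), a collagen of the corneal endothelium, Thbs1 (3.27-fold) and the retinol dehydrogenase Rdh5 (3.21-fold) made up the first 10. In KO the 73 Timp3-rich barcodes were led by Ttr (9.69-fold).

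Barcodes rich in the markers of other cells, by the same rule, gave further levels. In KO, Mmp3 was at 2189 CPM in 94 macrophage-marker-rich barcodes, 1403 in 115 neutrophil-marker-rich, 1022 in 317 corneal endothelium-marker-rich and 946 in 95 melanocyte-marker-rich ones, all below the 4860 of the keratocyte-marker-rich. The macrophage and neutrophil sets lay above the library level of 1092, and the other 2 at or below it. Mmp9 had 10 UMIs in the neutrophil-marker-rich barcodes of KO, or 22.4 CPM (10.7 to 41.2), against 1.87 in the library. The keratocyte-marker-rich set had 2 UMIs of it (10.8 CPM, 1.31 to 38.9), an interval that overlaps that of the neutrophil set. The corneal endothelium set had 4 (2.94 CPM, 0.801 to 7.53), and the macrophage and melanocyte sets had 1 each. Doublets were not called, so a barcode may hold more than 1 nucleus. The 4 corneal epithelium markers, the most abundant set in each library, set apart 0 barcodes in WT and KO and 1 in KO_PBS, so epithelial levels are not given.

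Timp3 was above its library level in barcodes rich in the markers of several cells, among them corneal endothelium and pigment epithelium. It was at 309 CPM in 221 corneal endothelium-marker-rich barcodes of WT, 271 in 317 of KO and 939 in 807 of KO_PBS. In barcodes rich in Rpe65, Rgr, Rlbp1 and Ttr, a group added after the data were seen, it was at 190 in 74 barcodes of WT and 1288 in 196 of KO_PBS. Each value was above that of its library (68.3, 122 and 465). Some smaller sets were as high: in KO_PBS it was at 1089 in 9 melanocyte-marker-rich barcodes (820.2 to 1417), 999 in 15 mural-marker-rich and 943.5 in 25 vascular endothelium-marker-rich ones. In WT, 7 vascular endothelium-marker-rich barcodes had 328 (228 to 456) and 33 mural-marker-rich ones 257 (197 to 329). The macrophage-marker-rich barcodes of KO_PBS had 539 (433 to 663). Other KO_PBS barcodes were also high, the level in low-UMI barcodes being 394.

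**Figure D5:**
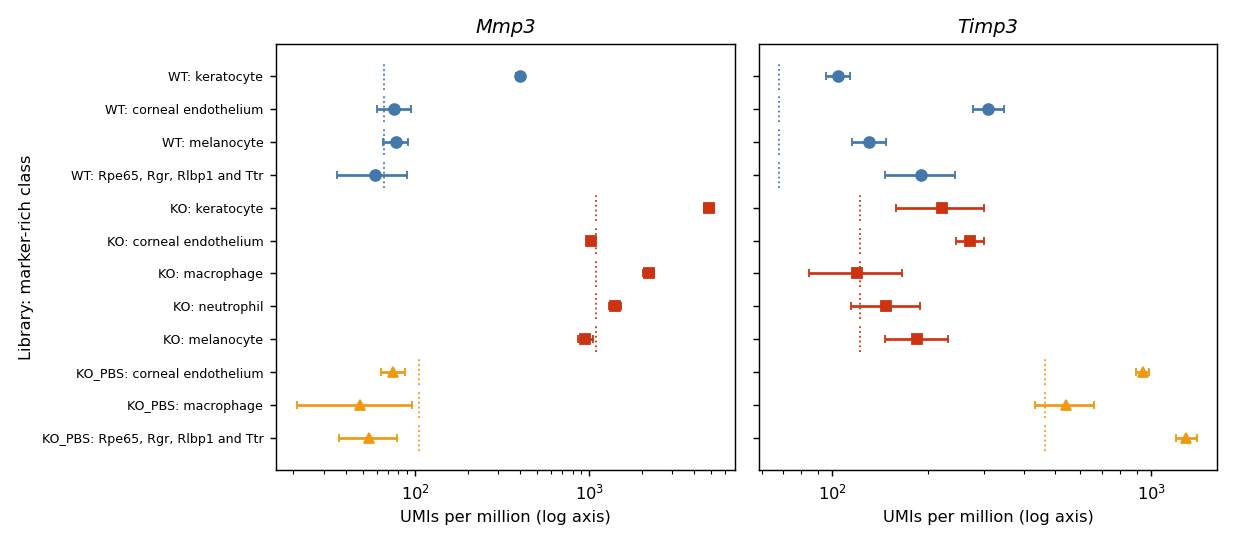
CPM (log axis) of Mmp3 and Timp3 in barcodes rich in the markers of each class, for classes with at least 50 barcodes in a library; bars are 95% Poisson intervals and dotted lines the level of the whole library. Among the classes shown, Mmp3 peaks in keratocyte-marker-rich barcodes of WT and KO, and Timp3 in corneal endothelium-marker-rich barcodes and those rich in Rpe65, Rgr, Rlbp1 and Ttr.

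Likeness was measured over 10 sets of barcodes formed by library and class, those rich in Rpe65, Rgr, Rlbp1 and Ttr being left out. The genes with the pattern most like a member were found by the correlation of their log2 levels, centred within each library. These sets share libraries and depth, and the values are descriptions. Mmp2 was most like the microfibril gene Mfap4 (r = 0.976) and Col5a2 (0.963), and Mmp3 like the matricellular genes Smoc2 (0.957) and Tnc (0.951). Timp2 was most like the proteoglycan Bgn (0.990) and the protease Ctsk (0.988). Mmp14 (Nudt2, 0.975), Timp1 (Akr1a1, 0.956) and Timp3 (Mt3, 0.971) had genes of other roles at the top.

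The other metalloproteinases and Timp4 went both ways in KO against WT. Of 15 with enough UMIs, 5 were higher and 1 lower. Over all genes 20.6% were higher and 8.63% lower in this comparison, the background for each uncentred list count of KO against WT that follows. For list counts centred on the median of all genes the background is 14.8% higher and 12.9% lower. The macrophage elastase Mmp12 had 0.395 CPM for WT, 34.4 for KO and 3.23 for KO_PBS, an order that Mmp3 also showed. Mmp25, a membrane enzyme of neutrophils, had 0.0899, 4.72 and 1.99. The enamel enzyme Mmp20 was lower, at 0.320, 0.0825 and 2.24, and Mmp24 had 0.266, 0.134 and 2.58.

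Of the ADAM and ADAMTS proteases 9 of 14 were higher and 0 lower. Adam8, of myeloid cells, had 0.770, 8.43 and 7.88 CPM, and Adam19 had 1.88, 15.0 and 16.1. Adam15 (35.0, 41.3 and 75.1) and Adamts1 (13.6, 15.9 and 47.0) had the smallest ratios of the list. Of the genes that activate the enzymes or control them at the cell surface, 10 of 14 were higher and 1 lower. Of the higher genes Plat, Serpine2, Serpinb2, Furin and Lrp1 lay just past the fold of 2 (log2 1.12 to 1.15). Centred on the median of all genes, 5 were higher and 1 lower, beside 14.8% of all genes higher and 12.9% lower. Lcn2, whose product binds Mmp9, had 8.07, 85.7 and 41.3, and the urokinase receptor Plaur had 0.645, 6.62 and 5.37. Plasminogen (Plg) was the lower one, with 39 UMIs in WT and 11 in KO, and Bsg, an inducer of metalloproteinases, had 643, 415 and 765.

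Of 12 genes with enough UMIs for cytokines, their receptors and an antagonist that act on the induction of metalloproteinases, 11 were higher and 0 lower. The 11 include Il1rn, whose product blocks the interleukin-1 receptor, at a log2 ratio of 1.93. Ifng had 1 UMI in the WT library, 453 in that of KO and 382 in that of KO_PBS, and Osm, which acts on Mmp and Timp1 genes, had 4, 258 and 103. Tnf had 1.45, 3.39 and 16.3 CPM, and Tgfb1, not counted, 23.6, 43.3 and 33.5. Of the AP-1 and NF-kB genes 8 of 12 were higher and 0 lower. Fosl1 had 0.281, 6.44 and 5.76 and Fosb 1.03, 15.3 and 4.87, while Junb (357, 311 and 314) and Jund (153, 176 and 103) had ratios near 1.

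Of the matrix and basement membrane substrates 10 of 15 were higher and 0 lower. Bgn had 42.8, 286 and 270.5 CPM and Col1a2 had 245, 1163 and 662, against 153, 239 and 82.0 for Lama3 and 31, 43 and 204 UMIs for Acan. The median log2 ratio of KO to WT over these lists ranged from 0.59 for the other metalloproteinases to 1.84 for the cytokines and receptors, beside 0.25 over all genes. Centred on that median, 5 other metalloproteinases were higher and 2 lower, and 9 ADAM and ADAMTS genes, 10 cytokines and receptors, 6 AP-1 and NF-kB genes and 10 substrates were higher with 0 lower. On that scale 14.8% of all genes were higher and 12.9% lower.

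In KO_PBS against KO, 39.9% of all genes were higher and 4.70% lower. Of 15 other metalloproteinases 6 were higher, a share near that of all genes, and 2 lower. Of 14 ADAM and ADAMTS genes 4 were higher and 1 lower, as were 4 and 1 of 14 activation genes, so the higher shares lay below that of all genes. Of 12 cytokines and receptors 1 was higher and 2 lower, of 12 AP-1 and NF-kB genes 0 and 2, and of 15 substrates 5 and 3. The cytokine, AP-1 and NF-kB and substrate lists had medians of -0.23, -0.30 and -0.75 on the log2 scale, below the 0.63 of all genes. Centred on it, 5 of the other metalloproteinases were higher and 4 lower, 2 and 2 of the ADAM and ADAMTS genes, 3 and 4 of the activation genes, 1 and 5 of the cytokines and receptors, 0 and 6 of the AP-1 and NF-kB genes, and 1 and 8 of the substrates. On that scale 29.8% of all genes were higher and 12.9% lower.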

How the data were processed

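The authors deposited raw UMI counts per gene and barcode. The file headers name Cell Ranger 7.0.1, and the submitters' processing notes name mm10. How barcodes were filtered and intronic reads treated is not given in the sources used here. The counts were not normalized. All listed barcodes were used, no doublet caller was run, and no count model was fitted because each group is 1 library. UMIs were summed over the barcodes named and scaled to 1000000 UMIs of the 30406 shared IDs (CPM). Sums have exact Poisson intervals and shares exact Clopper-Pearson ones; they cover counting error only, since barcodes are not replicates. The size rule was tested on simulated data. In the sparse rich barcodes it missed many genes changed by a known fold in KO and most in KO_PBS, and counted some unchanged ones, more than in whole libraries, so absent calls there say little.

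The members, markers and lists were chosen with earlier results of these data known. All 9 members are named, and of each list the 2 genes with the largest and the 2 with the smallest ratio of KO to WT. Il1rn, Plat, Serpine2, Serpinb2, Furin and Lrp1 are named besides, the first as an antagonist and the others for ratios near the fold of 2. Likeness used genes with at least 20 CPM on average and sets of at least 50 barcodes, and skipped class markers. Coordinates are from GENCODE M21 and promoters from RefSeq, both GRCm38; Mmp2 and Mmp9 have no promoter sequence here. Groupings by Rpe65, Rgr, Rlbp1 and Ttr or by a member itself, totals without lens crystallin genes, and list counts on centred ratios were added after seeing the data. The results of 2 further marker lists are not reported here. Tools were scipy 1.17.1, numpy 2.4.6, pandas 2.3.3 and matplotlib 3.10.9 under python 3.11.15.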

Additional observations from a re-analysis of the deposited data

How the results depend on the processing

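Of the counts of members under the alternatives, 181 stayed within 1.5 times the reported count and 25 moved. A count of 0 that remained 0 was taken as stayed, as was a count that held while its genes changed. Of the log2 ratios of single members, 764 stayed within the reported interval, 162 moved and 1 reversed. Only a ratio that had been counted higher or lower could be labelled reversed. Changes of sign in other ratios are among those that stayed or moved. An example is Mmp3 in KO_PBS against WT over all barcodes, at log2 0.66 and, centred, -0.61. Centred on the median of all genes, 1 member was higher in KO_PBS than in KO, 5 were higher in KO_PBS than in WT, and in the rich barcodes 2 were higher in KO than in WT (Mmp2 and Mmp3) and 0 were higher and 2 lower (Mmp3 and Timp2) in KO_PBS than in WT. Rich against other barcodes then gave 1 higher (Mmp3) and 1 lower (Mmp14) in KO, and 0 higher and 5 lower in KO_PBS, beside 18.0% and 34.7% of all genes lower, where the log2 ratio of Mmp3 turned to -1.70. In those small sums the floor of 3 UMIs raises the median of all genes, to 0.99 in KO and 3.21 in KO_PBS. It also raises the median of KO_PBS against WT over the rich barcodes, to 1.85. Without immunoglobulin, mitochondrial, ribosomal protein genes and AY036118 in the total, 1 member (Timp3) was higher in KO_PBS than in KO. The share of all genes higher there was 38.1%.

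The next counts are of members higher in rich than in other barcodes of KO_PBS. With barcodes of at least 500 genes and at most 5% mitochondrial UMIs the count was 2 (Mmp2 and Mmp3), beside 1.21% of all genes. The same 2 were higher without the 5% of barcodes with the most UMIs (1.19% of all genes) and without the marker Kera (1.1%). The count was 0 when thinned to 1000 UMIs (1.19% of all genes), with markers at 3 times the expected (0.455%), without Dcn (0.896%) and without Col1a1 (0.91%). In rich barcodes, thinning gave 3 higher in KO than in WT, beside 5.6% of all genes. It gave 0 higher in KO_PBS than in KO, beside 6.8%, but only 1 member had enough UMIs there. Markers at 3 times the expected gave 2 lower in KO_PBS than in KO (Mmp3 and Timp1) beside 4.74% of all genes, and 4 higher in KO_PBS than in WT beside 27.2%. Without Lum, 2 were lower in KO_PBS than in KO, beside 11.3% of all genes. Without Dcn, 2 were lower there beside 8.24%, and 1 (Mmp3) was lower in KO_PBS than in WT beside 4.69%. Without Col1a1, 3 were higher in KO than in WT, beside 8.31%. The cause of these moves was not tested. At 10 times the expected markers, KO and KO_PBS held 0 barcodes and gave no value.

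No paired analysis was possible because there is 1 library per group; leaving out a replicate was likewise not possible.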
